A study of Mus musculus with 12 samples.

Results

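The nuclear genes of the respiratory chain and ATP synthase were followed in cultured mouse bone marrow-derived macrophages. Members were all genes in the deposited table with the name prefixes of the subunits of complexes I to V, plus Cyc1 and Cycs, which gave 93 of 16570 genes. By prefix, 47 belonged to complex I, 4 to complex II, 9 to complex III (Cyc1 among them), 15 to complex IV and 17 to complex V, and Cycs encodes the mobile carrier cytochrome c. The prefixes also took in 9 genes that are not subunits: the assembly factors Ndufaf1 to Ndufaf8 of complex I and Cox7a2l, a factor of respiratory supercomplexes. Ndufa4 was counted by its name with complex I, although its protein is now assigned to complex IV. Ndufa4l2, a relative of Ndufa4, and Ndufb4c, a relative of Ndufb4 with no stated role, were also counted by name as subunits of complex I. Macrophages from C57BL/6J mice aged 6 to 8 weeks were cultured in 4 conditions with 3 libraries each. The treatment notes and the design text give 2 days for each condition, while the growth notes speak of a further 4 days with RANKL, and 2 days is used here. The conditions were M-CSF (50 ng/mL) with RANKL (100 ng/mL) and 1 µM RHC80267, M-CSF with RANKL and 1 µM BMS309403, M-CSF with RANKL, and M-CSF alone. M-CSF keeps macrophages alive, RANKL drives them to become osteoclasts, RHC80267 is known to inhibit diacylglycerol lipase, and BMS309403 to inhibit the lipid carrier FABP4. All cultures thus received M-CSF, and all but the M-CSF group received RANKL. Whether the 3 libraries of a condition came from different cultures or mice is not in the labels, and p-values then measure only the spread between these libraries, which may be technical.

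Complexes I and II feed electrons from NADH and succinate to ubiquinone, complex III passes them to cytochrome c, and complex IV passes them to oxygen. The proton gradient built on the way drives complex V, the ATP synthase. Osteoclasts are known to be rich in mitochondria. A few subunits are encoded by the mitochondrial genome, and these were not analysed here.

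The libraries held 17760844 to 18344989 expected counts. Summed CPM of 8 osteoclast markers, such as Acp5 and Ctsk, was 15849 to 17921 in the RHC80267 libraries, 6618 to 7461 in the BMS309403 libraries, 8106 to 10059 in the RANKL libraries and 93.3 to 111 in the M-CSF libraries. CPM are counts scaled by the library size after TMM adjustment. Summed CPM of 7 macrophage markers, Csf1r among them, was 19805 to 20847 with RHC80267, 27300 to 28883 with BMS309403, 24656 to 26303 with RANKL and 30951 to 31427 with M-CSF. All 8 osteoclast and all 7 macrophage markers had counts in every group. Summed B cell markers reached at most 14.1 CPM and erythroid markers at most 1.21 CPM in any library. B cell sums were 8.74 to 10.1 CPM with RHC80267, 9.99 to 10.98 CPM with BMS309403, 10.1 to 10.7 CPM with RANKL and 13.1 to 14.1 CPM with M-CSF. T cell markers summed to 43.7 to 50.3 CPM with RHC80267 and 115 to 127 CPM with BMS309403. Their sums were 76.9 to 97.1 CPM with RANKL and 39.2 to 40.8 CPM with M-CSF. Cd3e and Cd3g were at 0 with BMS309403, and Cd3d was at 0 with M-CSF. The sum with BMS309403, the highest, thus came from Cd3d, Cd4 and Cd8a alone. Whether T cells were present was not tested. Dendritic cell markers summed to 21.004 to 24.3 CPM with RHC80267, 32.8 to 34.95 CPM with BMS309403, 35.6 to 39.3 CPM with RANKL and 26.8 to 38.5 CPM with M-CSF. Stromal markers summed to 22.5 to 64.0 CPM with RHC80267 and to at most 24.9 CPM elsewhere. Neutrophil markers summed to 672 to 1002 CPM with RHC80267 and to between 1074 and 1626 CPM in the other 9 libraries. In bulk RNA, fewer cells of a type and less RNA per cell cannot be told apart.

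Transcripts of the 84 subunits and carriers made up 4.20% ± 0.08 of the total TPM (the authors' values, which are scaled by gene length and depth) in the RHC80267 libraries. The share was 3.32% ± 0.09 in the BMS309403 libraries, 3.58% ± 0.16 in the RANKL libraries and 2.37% ± 0.03 in the M-CSF libraries (SD, n = 3 each). The RHC80267 libraries lay above the other 9 and the M-CSF libraries below the other 9. Every BMS309403 library lay below every RANKL library, at 34019, 32279.5 and 33222 summed TPM against 37653, 35053 and 34666. TPM carry no TMM adjustment, and the CPM scale did not show this gap for every gene. Cox7c averaged 1184 TPM with BMS309403 and 1231 TPM with RANKL, but 119 and 116 CPM. Of the 81 subunits and carriers tested on counts, 24 had a positive log2 fold change with BMS309403 against RANKL, and the median was -0.04. RANKL replicate 1 was the highest of its group. Split by complex, ATP synthase had the largest summed level, at 14868 ± 196 TPM with RHC80267, 11759 ± 299 TPM with BMS309403, 12856 ± 585 TPM with RANKL and 8177 ± 153 TPM with M-CSF. Complex II, with only 4 genes, had 1392 ± 15.9, 1022 ± 14.8, 1128 ± 26.8 and 677 ± 8.32 TPM in the same order. In RANKL libraries single genes spanned mean levels of 0.08 TPM for Ndufa4l2 to 1570 TPM for Cox4i1, the common isoform of subunit 4 of complex IV.

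**Figure D1:**
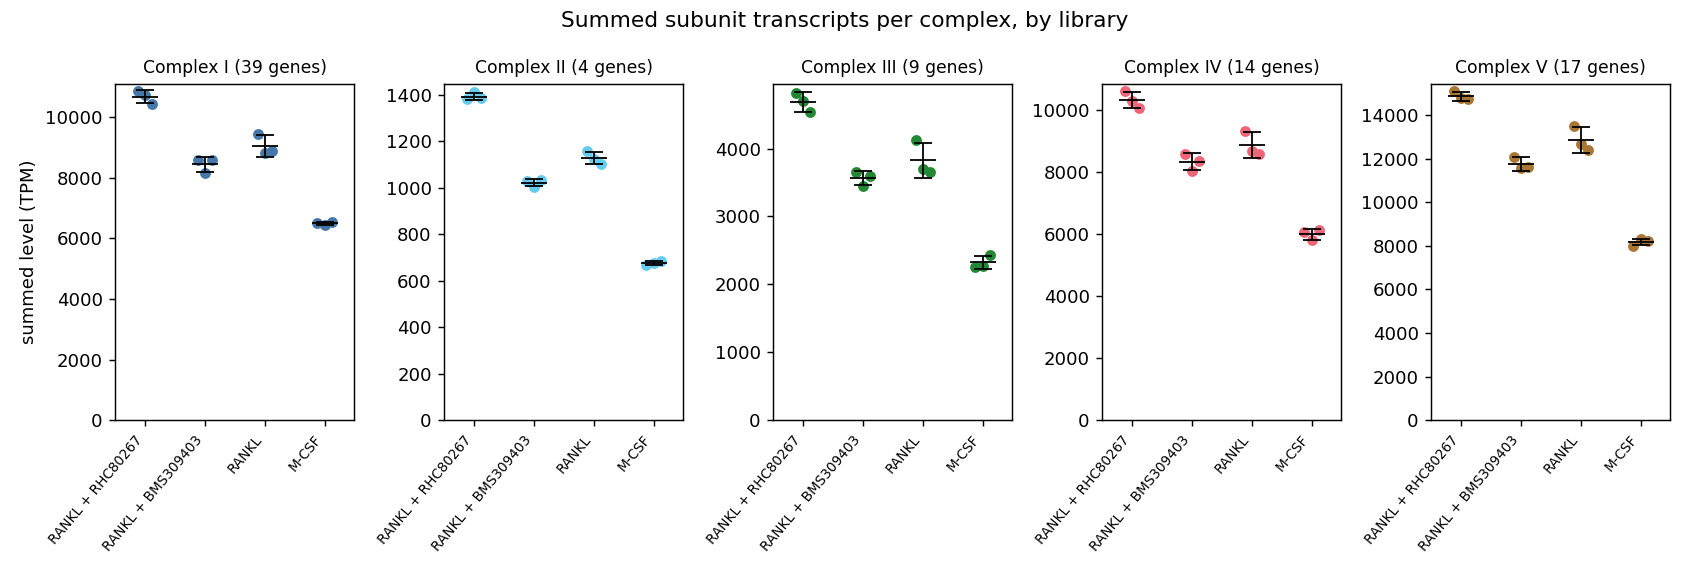
Summed TPM of the subunit genes of complexes I to V (y axis, from 0) in each of the 12 libraries, with points for libraries, horizontal marks for means and bars for ±1 SD. In each complex the 3 RHC80267 libraries are highest and the 3 M-CSF libraries lowest. Complex V, for example, averages 14868 TPM with RHC80267 and 8177 TPM with M-CSF.

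Transcripts of all 5 complexes rose with RANKL. Of the 90 members that could be tested, 86 rose and none fell with RANKL against M-CSF (edgeR quasi-likelihood test, p adjusted by Benjamini-Hochberg over the whole table and called below 0.05), while 31.4% of all genes tested were higher and 29.8% lower. Without adjustment, at p below 0.05, the counts were also 86 and 0, beside 32.9% and 31.5% of all genes, and DESeq2 called 84 higher and 0 lower, beside 28% and 26.8%. The median log2 fold change of the tested members was 0.64, beside 0.00 for all genes tested. All 3 RANKL libraries lay above all 3 M-CSF libraries for 85 members and below them for 1, against 33.4% and 32.2% of all genes. The 4 members not called were Ndufs8, Ndufa2, Ndufaf3 and Cox6b2. Ndufa4l2, Cox4i2 and Cox6a2, the isoforms known from hypoxia, lung and muscle, had too few counts to be tested, with 3, 4 and 96 expected counts over all 12 libraries. Of 10 proliferation genes 2 rose and 3 fell, beside 31.4% and 29.8% of all genes. Among those that fell were Pcna, at -0.58, and Mki67, at -0.35 on the log2 scale (edgeR adjusted p = 1.56e-10 and 1.05e-05). Osteoclast and T cell marker sums were higher and macrophage and B cell marker sums lower with RANKL without overlap, as given above. The part of these differences in the members' change was not tested.

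**Figure D2:**
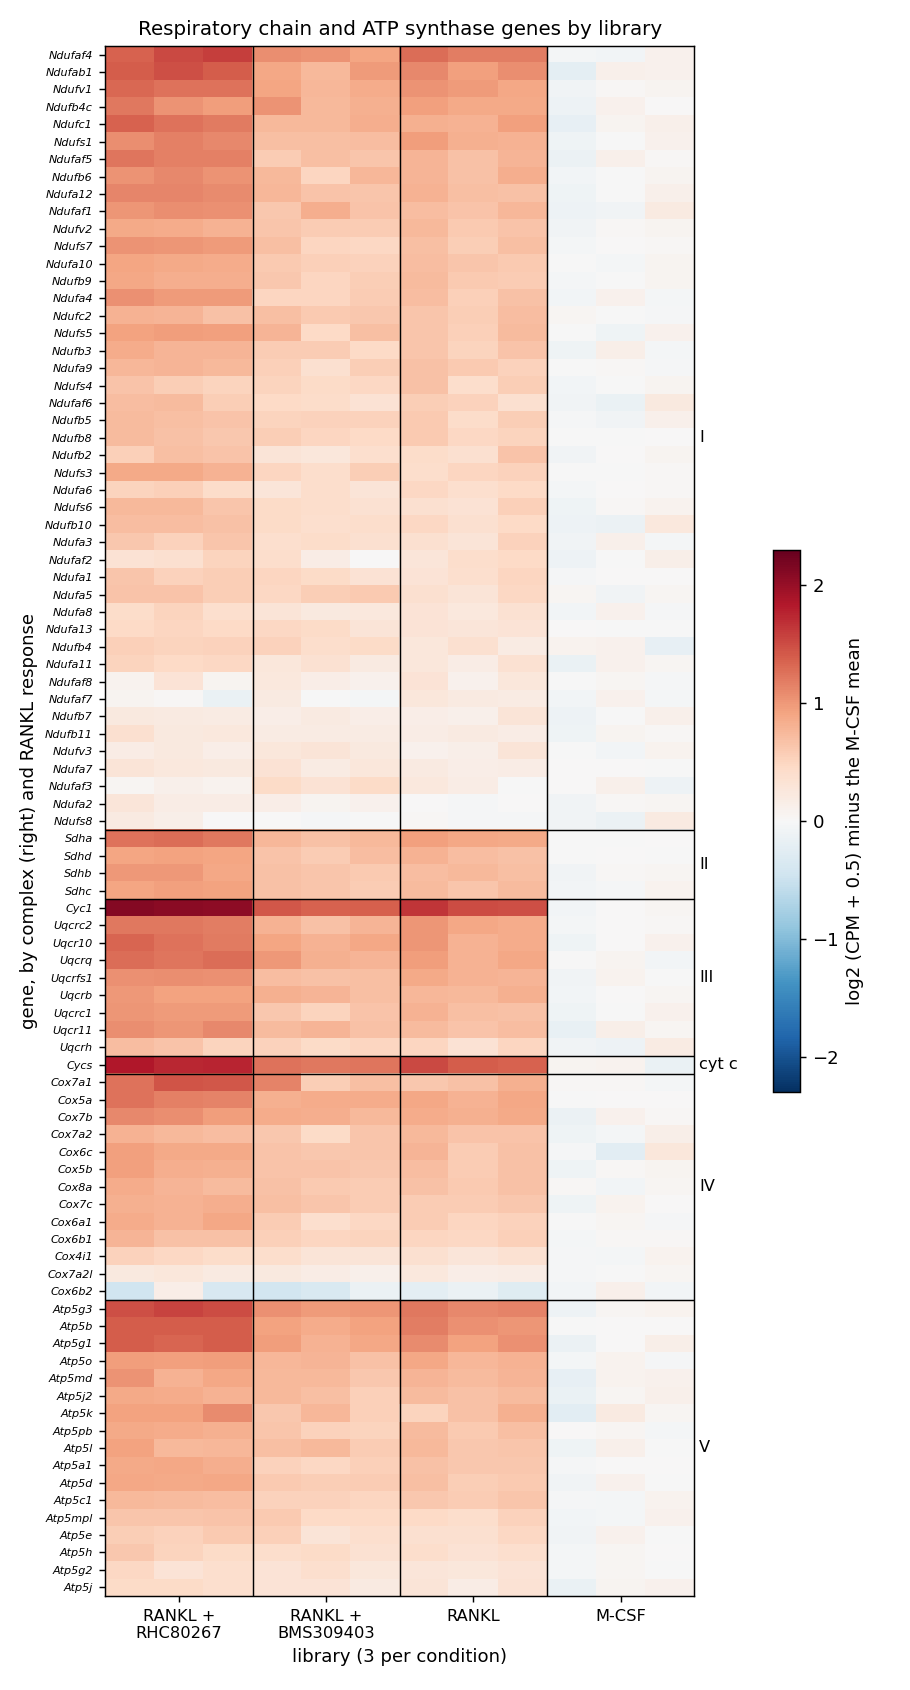
Expression of 89 of the 90 tested members (rows, by complex and then by fold change with RANKL) in the 12 libraries (columns), as log2 (CPM + 0.5) minus the mean of the M-CSF libraries, from blue (lower) to red (higher). Nearly all rows are red in the 9 libraries with RANKL and deepest in the 3 with RHC80267. Cyc1 and Cycs stand out, and Cox6b2 is the bluest row.

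RHC80267 was accompanied by higher levels again. Of the 90 tested members, 71 rose and 1 fell with RHC80267 against RANKL (edgeR), beside 26.9% and 23% of all genes, and the members' median log2 fold change was 0.21 against 0.02 for all genes tested. For 75 members all 3 RHC80267 libraries lay above all 3 RANKL libraries and for 1 below them, against 31.1% and 26.8% of all genes. The member that fell was Ndufaf7, an assembly factor of complex I. Without RANKL replicate 2 the number that rose was 52. Of 10 proliferation genes, 8 rose and none fell in the same comparison, with Ccnb1, the mitotic cyclin B1, up by 0.49 ± 0.07 and Mcm5, of the replicative helicase, by 0.50 ± 0.08 on the log2 scale (SE, edgeR adjusted p = 2.18e-06 and 1.03e-05). The osteoclast marker sum was also higher and the macrophage, neutrophil, T cell and dendritic marker sums lower without overlap, as given above, and the stromal sum reached 64.0 CPM with RHC80267 against at most 24.9 CPM with RANKL, with overlap. The part of these differences in the members' change was not tested.

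BMS309403 was accompanied by small decreases in a few members. Of the 90 tested, 7 fell and none rose with BMS309403 against RANKL (edgeR), beside 3.74% and 3.49% of all genes, and the members' median log2 fold change was -0.04 against -0.01 for all genes. Without adjustment, at p below 0.05, 23 were lower and 5 higher, beside 10.4% and 9.4% of all genes, and DESeq2 called 7 lower and 0 higher, beside 3.17% and 3.8%. The 7 were Ndufs1, Sdha, Uqcrc2, Cyc1, Cycs, Atp5a1 and Atp5b, with log2 fold changes of -0.19 to -0.13. All 3 BMS309403 libraries lay below all 3 RANKL libraries for 15 members and above them for 4, against 12% and 11.2% of all genes. The count rests on single libraries: without RANKL replicate 1 only Sdha was called, without BMS309403 replicate 2 none was, without BMS309403 replicate 3 the count was 4, and without RANKL replicate 3 it was 8. Of the proliferation genes, 6 of 10 fell and none rose. The macrophage and T cell marker sums were higher and the osteoclast and dendritic sums lower than with RANKL, without overlap. The part of these differences in the members' change was not tested.

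RHC80267 and BMS309403, both at 1 µM for 2 days, were also compared directly. With RHC80267 against BMS309403, 71 of the 90 tested members were higher and 1 was lower (edgeR), beside 30.1% and 25.5% of all genes. The members' median log2 fold change was 0.25, against 0.03 for all genes tested. The member that was lower was Ndufaf3, an assembly factor of complex I. All 3 RHC80267 libraries lay above all 3 BMS309403 libraries for 73 members and below them for 1, against 33.2% and 28.5% of all genes. Proliferation genes were higher for 9 of 10 and lower for 1, with Pcna, the sliding clamp of replication, at -0.17 (adjusted p = 0.00287). The osteoclast and stromal marker sums were higher and the macrophage, neutrophil, T cell and dendritic sums lower with RHC80267, without overlap. The part of these differences was not tested.

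**Figure D3:**
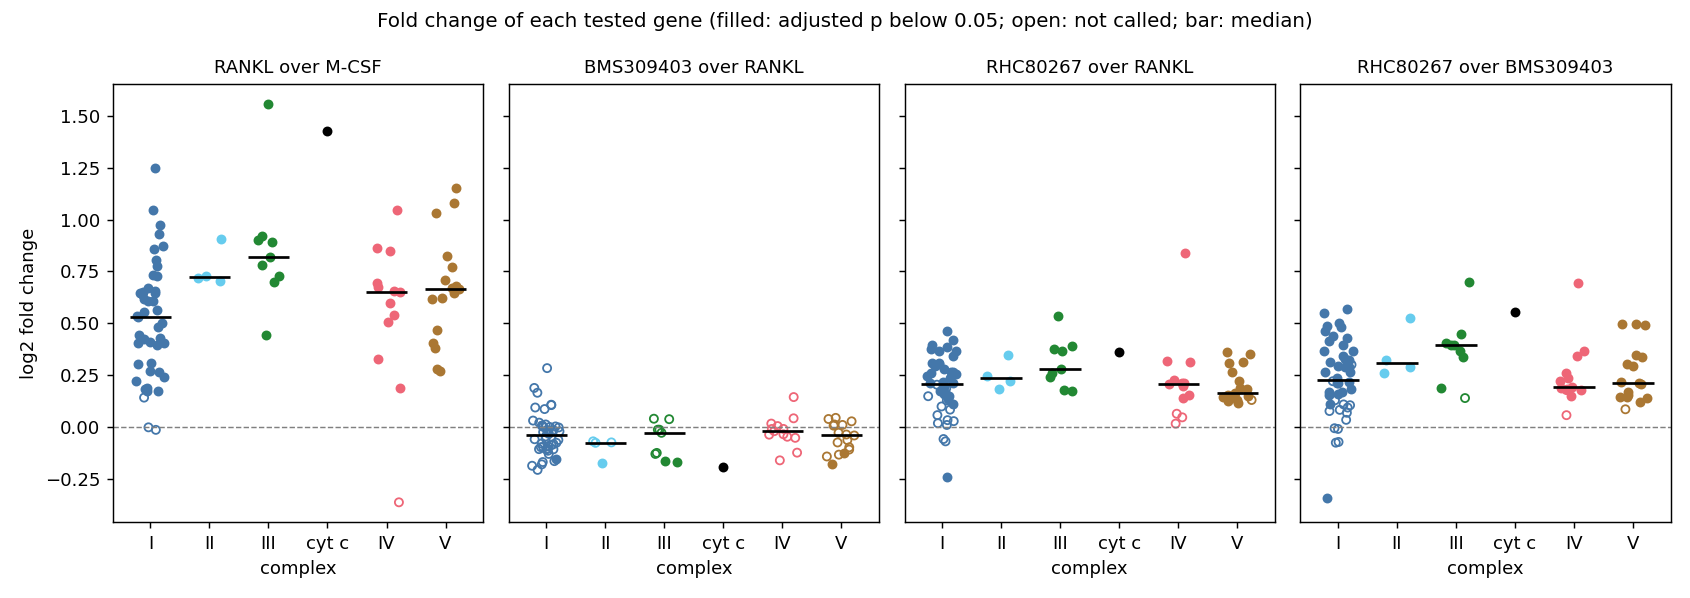
Log2 fold change (y axis) of each tested member, by complex (x axis), in 4 comparisons. Filled points are called at an adjusted p below 0.05, open points are not, and bars are medians. With RANKL over M-CSF the medians lie between 0.53 (complex I) and 0.82 (complex III), with BMS309403 over RANKL near 0, and with RHC80267 over RANKL between 0.16 (complex V) and 0.28 (complex III).

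Complex I is the NADH dehydrogenase. With RANKL 43 of its 46 tested members, assembly factors included, rose, beside 31.4% of all genes tested. The median was 0.53 and the range -0.01 to 1.25 on the log2 scale. Counts for the other complexes below are to be read against the same share, and those with RHC80267 against 26.9%. Ndufv1, which binds FMN and oxidizes NADH, had 135, 129.9 and 129 CPM with RHC80267, 101, 91.8 and 97.7 CPM with BMS309403, 112, 107 and 100.2 CPM with RANKL and 50.8, 55.2 and 56.3 CPM with M-CSF. The BMS309403 and RANKL libraries overlapped, and the other groups were apart. Ndufv1 rose by 0.97 ± 0.05 with RANKL (SE, edgeR adjusted p = 3.25e-13) and by 0.31 ± 0.05 with RHC80267 against RANKL (adjusted p = 1.43e-05). Ndufs1, the iron-sulfur subunit next to it, had 164, 174 and 168 CPM with RHC80267, 126, 126 and 128 CPM with BMS309403, 151, 137 and 135 CPM with RANKL and 73.0, 77.4 and 83.5 CPM with M-CSF. No group overlapped another. Ndufs1 rose by 0.86 ± 0.05 with RANKL and by 0.26 ± 0.05 with RHC80267 (edgeR adjusted p = 1.53e-12 and 0.000105). With BMS309403 it fell by 0.16 ± 0.05 (adjusted p = 0.0468), a call lost under 8 of the alternatives tried, and without RANKL replicate 1 the value was -0.10.

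Further core subunits of complex I rose with RANKL by 0.48 to 0.67 on the log2 scale. These were Ndufs7, which hands electrons to ubiquinone, with 0.66, Ndufs3, of the peripheral arm, with 0.48 and the iron-sulfur subunit Ndufv2 with 0.67. Their rises with RHC80267 against RANKL were 0.36, 0.38 and 0.17. Ndufs8, a core subunit with iron-sulfur clusters, did not follow them. It had 66.5, 63.7 and 58.6 CPM with RHC80267, 58.3, 57.1 and 57.3 CPM with BMS309403, 59.0, 56.8 and 57.0 CPM with RANKL and 54.8, 52.7 and 67.1 CPM with M-CSF. M-CSF replicate 3 was the highest of all 12 libraries, and the RANKL and M-CSF libraries overlapped. Its log2 fold change with RANKL was -0.01 ± 0.07 (edgeR adjusted p = 0.863), and it was 0.10 without M-CSF replicate 3 and 0.02 with unadjusted library totals. Against RANKL, RHC80267 gave 0.13 ± 0.07 (adjusted p = 0.114).

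Accessory subunits of complex I ran from no detectable difference to a doubling with RANKL. Ndufab1, which is also the mitochondrial acyl carrier protein, had 56.1, 49.6 and 54.4 CPM with RANKL and 22.0, 28.1 and 27.6 CPM with M-CSF. The groups were well apart, and the gene rose by 1.04 ± 0.08 (edgeR adjusted p = 6.65e-11). Ndufa2 had 44.7, 43.8 and 44.6 CPM with RANKL and 42.2, 45.4 and 45.8 CPM with M-CSF. These libraries overlapped, and the log2 fold change was -0.00 ± 0.05 (adjusted p = 0.969), with a sign that turned under 4 alternatives. With RHC80267 against RANKL 32 of the 46 tested members of complex I rose and 1 fell, beside 26.9% and 23% of all genes. Against BMS309403 31 were higher and 1 lower, beside 30.1% and 25.5%. The lower ones were the assembly factors Ndufaf7 and Ndufaf3, in that order, and no subunit was called lower.

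The assembly factors of complex I diverged from each other. Ndufaf4 had 26.6, 29.7 and 31.2 CPM with RHC80267, 21.8, 21.2 and 19.4 CPM with BMS309403, 25.3, 23.3 and 23.4 CPM with RANKL and 9.80, 9.67 and 10.8 CPM with M-CSF. No group overlapped another. It rose by 1.25 ± 0.08 with RANKL and by 0.28 ± 0.07 with RHC80267 against RANKL (edgeR adjusted p = 9.79e-12 and 0.00159), and with BMS309403 its log2 fold change was -0.21 ± 0.07 (adjusted p = 0.0835). Ndufaf5 rose by 0.80 with RANKL and by 0.46 with RHC80267, and Ndufaf1 by 0.73 and 0.34. Ndufaf7 had 12.3, 12.04 and 10.6 CPM with RHC80267, against 14.2, 13.7 and 13.5 CPM with RANKL, so the groups did not overlap. It fell by 0.24 ± 0.09 (adjusted p = 0.0232), a call that was lost with DESeq2, with unadjusted library totals, without RANKL replicate 1 and without RHC80267 replicate 3. Ndufaf3 had 8.77, 9.32 and 9.01 CPM with RHC80267, against 11.7, 10.9 and 11.7 CPM with BMS309403. The groups did not overlap, and the log2 fold change was -0.34 ± 0.09 (adjusted p = 0.00293). With RANKL against M-CSF, Ndufaf2 and Ndufaf6 rose by 0.41 and 0.55, Ndufaf7 and Ndufaf8 by 0.22 and 0.24, and Ndufaf3 was not called at 0.14. The calls of Ndufaf7 and Ndufaf8 were lost with DESeq2 and when 1 of several libraries was left out, and that of Ndufaf8 also without a filter.

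Complex II, the succinate dehydrogenase, is the only complex here with all its subunits encoded in the nucleus, and its 4 genes all rose with RANKL and with RHC80267. Sdha, which oxidizes succinate (gene 66945, chromosome 13, 74322255 to 74350240, GRCm38), had 602, 619 and 588 CPM with RHC80267, 428, 403 and 426 CPM with BMS309403, 486, 471 and 463 CPM with RANKL and 253, 249.96 and 256 CPM with M-CSF. No group overlapped another. It rose by 0.90 ± 0.04 with RANKL, fell by 0.18 ± 0.04 with BMS309403 and rose by 0.35 ± 0.04 with RHC80267, each of the inhibitors against RANKL (SE, edgeR adjusted p = 3.85e-15, 0.00446 and 5.66e-08). The decrease with BMS309403 was called under every alternative except without BMS309403 replicate 2, where the adjusted p was 0.0550. With RHC80267 against BMS309403 Sdha was higher by 0.52 ± 0.04 (adjusted p = 5.81e-11). The iron-sulfur subunit Sdhb and the membrane anchors Sdhc and Sdhd rose with RANKL by 0.72, 0.71 and 0.73 and with RHC80267 by 0.25, 0.22 and 0.18. With BMS309403 these 3 were not called, at -0.08, -0.07 and -0.08 (adjusted p = 0.328, 0.388 and 0.292). The 250 bases before the start of Sdha in RefSeq (GRCm38.p6, minus strand, chr13:74350241-74350490) are printed because this promoter held 3 matches, in capitals, to the NRF1 motif, the largest number among the promoters shown here.
Sdha: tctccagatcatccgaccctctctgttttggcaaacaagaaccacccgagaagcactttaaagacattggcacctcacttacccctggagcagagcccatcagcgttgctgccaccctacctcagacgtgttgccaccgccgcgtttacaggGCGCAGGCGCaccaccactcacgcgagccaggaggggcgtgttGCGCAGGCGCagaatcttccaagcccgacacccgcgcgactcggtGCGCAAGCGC

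Complex III, the cytochrome bc1 complex, had the highest median with RANKL, 0.82, and all 9 of its members rose. Cyc1, cytochrome c1, which hands electrons to cytochrome c (gene 66445, chromosome 15, 76343513 to 76346260, GRCm38), had 169, 166 and 164 CPM with RHC80267, 106, 100.2 and 101 CPM with BMS309403, 123, 112 and 109.6 CPM with RANKL and 37.2, 39.4 and 40.3 CPM with M-CSF. No group overlapped another, and the RANKL libraries were about 2.95 times the M-CSF libraries. Cyc1 rose by 1.56 ± 0.05 with RANKL, which was the largest fold change of the members tested, and by 0.53 ± 0.04 with RHC80267 against RANKL (SE, edgeR adjusted p = 7.07e-17 and 1.54e-09). With BMS309403 it fell by 0.16 ± 0.04 (adjusted p = 0.0275), a call lost without RANKL replicate 1, without BMS309403 replicate 2 and without BMS309403 replicate 3. With RHC80267 against BMS309403 Cyc1 was higher by 0.70 ± 0.04 (adjusted p = 1.46e-11).

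Uqcrc2, a core protein of complex III, had 257, 260.2 and 251 CPM with RHC80267, 194, 179 and 191 CPM with BMS309403, 225, 206 and 202 CPM with RANKL and 108, 113 and 114 CPM with M-CSF. The 4 groups were apart. It rose by 0.92 ± 0.04 with RANKL and by 0.28 ± 0.04 with RHC80267, and fell by 0.17 ± 0.04 with BMS309403 (edgeR adjusted p = 6.25e-14, 1.05e-05 and 0.0186), the last call being lost without RANKL replicate 1 and without BMS309403 replicate 2. The other core protein, Uqcrc1, and the Rieske iron-sulfur protein Uqcrfs1 rose by 0.73 and 0.82 with RANKL and by 0.26 and 0.24 with RHC80267. The smallest value of this complex with RANKL was 0.44, for the hinge protein Uqcrh, and with RHC80267 0.17, for the small subunit Uqcrb.

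Cytochrome c, the product of Cycs (gene 13063, chromosome 6, 50562563 to 50566569, GRCm38), moved much like Cyc1. Cycs had 200.4, 186 and 188 CPM with RHC80267, 131, 129.6 and 130.1 CPM with BMS309403, 159, 146 and 142 CPM with RANKL and 58.0, 58.4 and 49.9 CPM with M-CSF. No group overlapped another. It rose by 1.43 ± 0.05 with RANKL and by 0.36 ± 0.05 with RHC80267 against RANKL, and fell by 0.19 ± 0.05 with BMS309403 (SE, edgeR adjusted p = 1.39e-15, 3.07e-06 and 0.0221). The last call was lost without RANKL replicate 1 and without any 1 of the BMS309403 libraries. Cycs has 4 near-identical copies elsewhere in the genome, 1 of them annotated as coding, so its counts are uncertain. Its upstream 250 bases (GRCm38.p6, minus strand, chr6:50566570-50566819) are shown for the single match, in capitals, to the CRE motif TGACGTCA.
Cycs: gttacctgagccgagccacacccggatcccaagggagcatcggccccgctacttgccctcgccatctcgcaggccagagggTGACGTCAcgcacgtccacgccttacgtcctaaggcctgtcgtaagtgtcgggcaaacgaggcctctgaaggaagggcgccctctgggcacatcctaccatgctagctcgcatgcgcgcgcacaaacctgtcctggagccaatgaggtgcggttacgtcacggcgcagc

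Complex IV, cytochrome c oxidase, keeps its catalytic subunits on the mitochondrial genome, and the nuclear genes studied here encode the subunits around them. With RANKL 12 of its 13 tested members rose, with a median of 0.65. Cox5a had 195, 183 and 181 CPM with RHC80267, 146, 148 and 148 CPM with BMS309403, 152, 143 and 153 CPM with RANKL and 81.3, 82.1 and 82.7 CPM with M-CSF. The BMS309403 and RANKL libraries overlapped, and the other groups were apart. It rose by 0.87 ± 0.04 with RANKL and by 0.32 ± 0.04 with RHC80267 (edgeR adjusted p = 3.79e-14 and 4.69e-07). Cox5b, the zinc-binding subunit, rose by 0.66 and 0.21, Cox6c by 0.68 and 0.21, and Cox4i1 by 0.33 and 0.15. The RHC80267 call of Cox6c was lost with DESeq2, without RANKL replicate 2 and without RHC80267 replicate 1, and that of Cox4i1 without RANKL replicate 2. The common isoforms Cox6a1, Cox6b1 and Cox8a rose by 0.54, 0.51 and 0.65 with RANKL, and Cox7b by 0.85.

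Isoforms of complex IV that are known from other tissues had few counts. Cox7a1, the heart and muscle isoform of subunit 7a (gene 12865, chromosome 7, 30184171 to 30186030, GRCm38), had 2.37, 2.78 and 2.77 CPM with RHC80267, 2.16, 1.28 and 1.45 CPM with BMS309403, 1.37, 1.44 and 1.62 CPM with RANKL and 0.728, 0.727 and 0.674 CPM with M-CSF, from 351 counts in all. The RHC80267 libraries were the highest and the M-CSF libraries the lowest, and BMS309403 replicate 1 stood above the others of its group. Cox7a1 rose by 1.05 ± 0.27 with RANKL and by 0.84 ± 0.20 with RHC80267 against RANKL (edgeR adjusted p = 0.00182 and 0.00180). With RHC80267 against BMS309403 it was higher by 0.69 ± 0.20 (adjusted p = 0.00592, and 0.0526 without BMS309403 replicate 2). The common isoform Cox7a2 rose by 0.70 ± 0.06 with RANKL and was not called with RHC80267 (0.06 ± 0.05, adjusted p = 0.351). On the TPM scale Cox7a1 made up 12.8% ± 1.19 of the transcripts of the pair with RHC80267 and 9.49% ± 2.34 with BMS309403. Its share was 8.39% ± 0.38 with RANKL and 6.63% ± 0.96 with M-CSF (SD, n = 3 each). These shares depend on the length scaling: with RHC80267 Cox7a1 averaged 2.64 CPM and Cox7a2 103 CPM. Cox6b2, the testis isoform of subunit 6b, had 0.601, 0.662 and 0.559 CPM with RANKL and 0.728, 0.894 and 0.730 CPM with M-CSF. The RANKL libraries were lower without overlap, and the log2 fold change of -0.36 ± 0.33 was not called (adjusted p = 0.349). Cox7a2l rose by 0.19 with RANKL.

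Complex V, the ATP synthase, had all 17 members higher with RANKL, with a median of 0.66. Atp5b, the catalytic beta subunit of the F1 head (gene 11947, chromosome 10, 128083307 to 128090388, GRCm38), had 1366, 1361 and 1362 CPM with RHC80267, 986, 933 and 990.2 CPM with BMS309403, 1169, 1078 and 1043 CPM with RANKL and 512, 523 and 519 CPM with M-CSF. No group overlapped another. It rose by 1.08 ± 0.04 with RANKL and by 0.31 ± 0.04 with RHC80267, and fell by 0.18 ± 0.04 with BMS309403 (SE, edgeR adjusted p = 8.63e-16, 1.06e-06 and 0.00815). Its partner in the head, the alpha subunit Atp5a1, had 1169, 1180.2 and 1143 CPM with RHC80267, 923, 891 and 932 CPM with BMS309403, 1022, 989.6 and 989 CPM with RANKL and 631, 642 and 647 CPM with M-CSF. These groups were also apart, and the changes were smaller with RANKL, at 0.64 ± 0.03, and with RHC80267, at 0.22 ± 0.03 (adjusted p = 3.04e-13 and 1.28e-05). With BMS309403 Atp5a1 fell by 0.13 ± 0.03 (adjusted p = 0.0225). The BMS309403 calls of both genes were lost without RANKL replicate 1 and without BMS309403 replicate 2, and that of Atp5a1 also without RANKL replicate 2 and when only the 2 groups compared were fitted.

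The gamma and delta subunits of the rotor, Atp5c1 and Atp5d, each rose by 0.62 with RANKL, and the stalk subunit Atp5o by 0.82. With RHC80267 they rose by 0.11, 0.26 and 0.13, and the calls of Atp5c1 and Atp5o were lost without RANKL replicate 2, that of Atp5c1 also without RHC80267 replicate 1. Atp5j, of the peripheral stalk, had the smallest change of complex V with RANKL, 0.27. Atp5j overlaps Gabpa by 967 bases.

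Subunit c, of which the rotor ring is built, is encoded by Atp5g1, Atp5g2 and Atp5g3, which yield the same mature protein, and these genes differed in their changes. Atp5g3 had 353, 371 and 359.6 CPM with RHC80267, 263, 249.5 and 256 CPM with BMS309403, 292, 272 and 279 CPM with RANKL and 117, 130.3 and 133 CPM with M-CSF. Atp5g2 had 165, 148 and 155 CPM with RHC80267, 147, 153 and 141 CPM with BMS309403, 143, 141 and 146 CPM with RANKL and 114, 122 and 117 CPM with M-CSF. The groups of Atp5g3 were all apart, while for Atp5g2 the BMS309403 libraries overlapped both other groups with RANKL. With RANKL against M-CSF Atp5g3 rose by 1.15 ± 0.05, Atp5g1 by 1.03 ± 0.06 and Atp5g2 by 0.28 ± 0.04 (SE, edgeR adjusted p = 2.66e-15, 2.00e-12 and 1.18e-05). The rises with RHC80267 against RANKL were 0.36 ± 0.04, 0.35 ± 0.05 and 0.12 ± 0.04 (adjusted p = 5.19e-07, 1.52e-05 and 0.0243). The last call was lost under 4 alternatives, and the value was 0.08 without RHC80267 replicate 1. With BMS309403 none of the 3 was called, at -0.13, -0.14 and 0.04 (adjusted p = 0.0679, 0.142 and 0.718).

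On the TPM scale Atp5g2 held 29.6% ± 1.51 of the subunit c transcripts with RHC80267, 35.9% ± 1.41 with BMS309403, 33.2% ± 0.73 with RANKL and 47.3% ± 1.49 with M-CSF. Atp5g3 held 57.1% ± 1.70, 52.0% ± 0.92, 54.1% ± 0.58 and 42.0% ± 0.91 in the same order, and Atp5g1 held 13.3% ± 0.26, 12.1% ± 0.51, 12.6% ± 0.39 and 10.7% ± 0.60 (SD, n = 3 each). On this scale Atp5g2 was thus the most abundant of the 3 in M-CSF libraries and Atp5g3 in all 9 libraries with RANKL. By CPM, which are not scaled by gene length, Atp5g3 was above Atp5g2 in every M-CSF library too (means 127 and 118). The order with M-CSF thus depends on the length scaling. The shares were not tested.

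**Figure D4:**
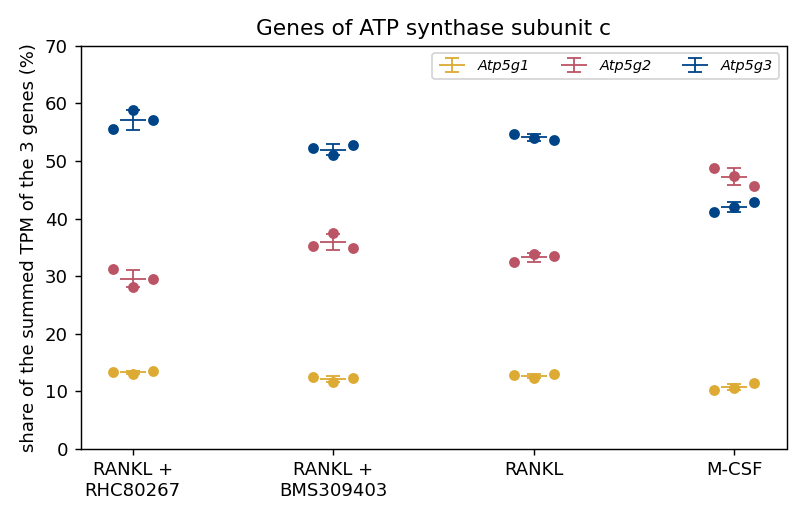
Share of each of the 3 subunit c genes in their summed TPM (y axis, percent) by condition, with points for the 3 libraries and bars for ±1 SD around the mean. Atp5g2 averages 47.3% and Atp5g3 42.0% with M-CSF, and the order is the other way round in the 3 conditions with RANKL.

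The 250 bases before the start of each subunit c gene are set side by side because these genes encode 1 mature protein and moved by different amounts (RefSeq, GRCm38.p6, all on the minus strand). They are chr11:96075632-96075881 for Atp5g1, chr15:102671048-102671297 for Atp5g2 and chr2:73911327-73911576 for Atp5g3, and for Atp5g1 and Atp5g3 the start used lies inside the annotated gene. Capitals mark an NRF1 match in Atp5g2 and a match to the ERR motif AAGGTCA, read on the other strand, in Atp5g3. Atp5g3 also held an NRF1 match in the searched 50 bases after the start, which are not printed, and Atp5g1 held no match.
Atp5g1: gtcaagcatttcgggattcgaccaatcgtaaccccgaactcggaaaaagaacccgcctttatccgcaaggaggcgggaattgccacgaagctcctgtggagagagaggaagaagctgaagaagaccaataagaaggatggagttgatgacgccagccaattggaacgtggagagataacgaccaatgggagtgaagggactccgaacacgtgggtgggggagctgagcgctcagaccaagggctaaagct
Atp5g2: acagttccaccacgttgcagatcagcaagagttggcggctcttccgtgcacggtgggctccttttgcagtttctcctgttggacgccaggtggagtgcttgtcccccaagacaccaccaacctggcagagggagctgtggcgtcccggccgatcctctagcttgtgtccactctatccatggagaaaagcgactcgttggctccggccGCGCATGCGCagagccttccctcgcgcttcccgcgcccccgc
Atp5g3: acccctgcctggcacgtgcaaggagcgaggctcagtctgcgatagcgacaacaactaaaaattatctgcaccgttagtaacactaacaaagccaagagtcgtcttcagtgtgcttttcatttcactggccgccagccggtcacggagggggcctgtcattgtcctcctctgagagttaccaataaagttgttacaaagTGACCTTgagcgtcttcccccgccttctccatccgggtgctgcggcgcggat

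Promoters were found in RefSeq for 75 of the 93 members. The window searched ran from 250 bases before to 50 after the start, on both strands, and the same was done for 17492 promoters of coding genes. The NRF1 motif, as in the capitals of Sdha and Atp5g2, was in 18 of the 75 (24.0%) and in 6.60% of all promoters. The GABP motif CCGGAAG was in 18 (24.0%) and in 11.9% of all, and the ERR motif AAGGTCA in 8 (10.7%) and 4.08%. The YY1 motif was in 5 (6.67%) and 1.27%, and the CRE motif TGACGTCA in 5 (6.67%) and 2.34%. The NRF1 match, for example, was shared by Sdha, Sdhd, Uqcrc1, Atp5g2, Ndufaf4 and Ndufaf5, which rose with RANKL by between 0.28 and 1.25. Members with an NRF1 match had a median log2 fold change with RANKL of 0.59, against 0.62 for those without, and members with an ERR match 0.65, against 0.62. Among the 18 members with no promoter entry were Atp5a1, Atp5mpl, Cox4i1, Cox4i2, Cox6a2, Cox6c, Cyc1, Ndufa2, Ndufa4l2, Ndufaf6, Ndufb4c, Ndufb9, Ndufs1, Sdhc, Uqcrb, Uqcrc2 and Uqcrq.

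Members were also divided by function rather than by complex. A list of 25 subunits and carriers was made with earlier results of these data known. It held electron-carrying, quinone-binding and F1 subunits, and also others such as Uqcrc1, Uqcrc2, Cox4i1, Cox5a, Cox5b, Cox6c and Atp5o. Of the 25, 24 rose with RANKL (median 0.72), and of the 56 other tested subunits 54 rose (median 0.58). Of all genes tested 31.4% rose. With RHC80267 against RANKL the counts were 24 of 25 (median 0.26) and 44 of 56 (median 0.19), and none fell in either class. Of all genes 26.9% rose and 23% fell in that comparison. All 7 members that fell with BMS309403 were among the 25, where 3.74% of all genes fell. Since the list was made with results known, this only describes it. These calls rested on single libraries: without RANKL replicate 1 only Sdha was called, and without BMS309403 replicate 2 none was. Of the 9 factors that are not subunits, 8 rose with RANKL (median 0.41), and with RHC80267 3 rose and 1 fell, beside the same shares of all genes. The difference between these classes was not tested.

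Members that rose more with RANKL also tended to be higher with RHC80267 than with BMS309403, and these comparisons have no library in common. Across the 90 tested members Pearson's r was 0.78 and Spearman's rho 0.80, and across all 12168 genes tested they were 0.318 and 0.289. These are correlations across genes, which are not independent replicates, and within a comparison all genes share the same libraries. The RANKL fold change had no comparable relation to abundance, with r = 0.0719 against the mean log2 TPM of the members.

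**Figure D5:**
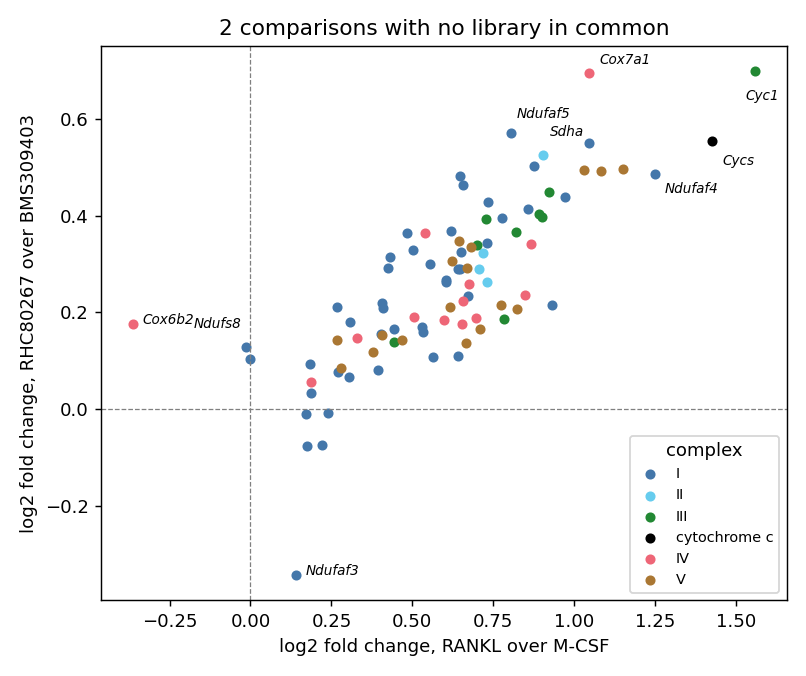
Log2 fold change with RANKL over M-CSF (x axis) against log2 fold change with RHC80267 over BMS309403 (y axis) for the 90 tested members, coloured by complex. Cyc1 lies at the upper right (1.56 and 0.70) and Ndufs8 near the origin (-0.01 and 0.13), Cox6b2 is the leftmost point (-0.36 and 0.18), and Ndufaf3 lies below 0 on the y axis, at -0.34.

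Other genes of the pathway were counted from lists made by function, to be read against the 31.4% of all genes tested that were higher and 29.8% that were lower with RANKL. With RANKL, 6 of 9 tested assembly factors of complex I outside the prefixes rose and none fell, led by Ecsit (0.88) and Timmdc1 (0.82). Of 33 assembly factors of complexes II to V 23 rose and none fell, among them Cox15, which makes heme a, by 0.67, and Tmem70, for ATP synthase, by 0.67. Of 13 carriers, porins and related genes 11 rose, and the adenine nucleotide translocase Slc25a5 did so by 1.01. Chchd10, a small protein of the mitochondrial intermembrane space, averaged 34.6 ± 3.5 CPM with RANKL and 3.44 ± 0.87 CPM with M-CSF (SD, n = 3) and rose by 3.33 ± 0.12 (SE, edgeR adjusted p = 2.94e-16). Of 14 genes for mitochondrial genome maintenance and transcription 4 rose, a share (28.6%) near the 31.4% of all genes, and 1 fell. Lrpprc, which stabilises mitochondrial mRNAs, was up by 0.69 and Tfb1m, an rRNA methyltransferase, by 0.57.

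Among 11 tested regulators of respiratory genes 5 rose (45.5%) and 3 fell with RANKL. Ppargc1b, the coactivator PGC-1 beta, averaged 86.1 ± 6.3 CPM with RHC80267, 40.2 ± 1.5 CPM with BMS309403, 53.6 ± 3.3 CPM with RANKL and 6.11 ± 0.52 CPM with M-CSF (SD, n = 3 each). It rose by 3.13 ± 0.08 with RANKL and by 0.68 ± 0.05 with RHC80267, and fell by 0.41 ± 0.06 with BMS309403 (SE, edgeR adjusted p = 2.57e-18, 1.10e-09 and 0.000357). Perm1, another regulator of this class, rose by 2.20 with RANKL. Nrf1, the factor that gives the NRF1 motif its name, fell by 0.36 with RANKL and was not called with RHC80267 (0.03, adjusted p = 0.717). Esrra, the estrogen-related receptor alpha, was higher by 0.66 ± 0.05 with RHC80267 than with BMS309403 (adjusted p = 1.33e-10).

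With RHC80267 against RANKL, 2 of the 9 outside assembly factors of complex I rose, as did 11 of the 33 of complexes II to V, 7 of the 13 carriers and porins and 6 of the 14 genome maintenance genes, and none of these fell, beside 26.9% of all genes higher and 23% lower. The share was 22.2% for the assembly factors of complex I and 33.3% for those of complexes II to V. Timmdc1 rose by 0.63, the translational activator Taco1 by 0.49, Chchd10 by 0.60, the porin Vdac1 by 0.29 and Lrpprc by 0.37. Of the regulators 4 rose and 3 fell, with Hif1a, the hypoxia-inducible factor, down to 135 ± 3.7 CPM with RHC80267 against 211 ± 3.9 CPM with RANKL (SD, n = 3), a log2 change of -0.64 ± 0.06 (SE, edgeR adjusted p = 4.25e-09). With BMS309403, where 3.49% of all genes were higher and 3.74% lower, no assembly factor was called, and the genes that fell were Chchd10 by 0.31, Lrpprc by 0.15 and the regulators Ppargc1b, Myc (by 0.42) and Perm1 (by 0.32).

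Reads of some members may also match other genes, although no reads were examined. Mouse transcripts in GENCODE M21 were searched for near-identical stretches in other genes, with at least 95% identity over at least 250 bases. Such stretches were found for 19 of the 90 members in that annotation. Atp5l had 9 such genes, Atp5h 4 and Uqcrb 3, and values of these members are uncertain. Among the 19 were Uqcrc2 with Pdzd9 and Ndufa13 with Tssk6. These pairs overlap in position (621 and 375 bases), so they may not be separate copies. Atp5md, Atp5pb and Ndufb4c were not searched. In RefSeq 17 members overlap another coding gene, among them Cox7a2 with Tmem30a (2482 bases), Atp5d with Cbarp (1658 bases) and Uqcrc2 with Pdzd9 (621 bases). Whether reads were counted by strand is not given in the sources used here, so reads of such pairs cannot be told apart. In the authors' deposited table, at a q-value below 0.05, 80 of the 93 members were higher with RANKL than with M-CSF and 0 lower, beside 19.5% and 18.2% of all genes with a value there. With RHC80267 against RANKL the authors' deposited table had 59 members higher and 0 lower, beside 13.4% and 14.8% of all genes. For BMS309403 against RANKL the authors' deposited table had 0 higher and 5 lower, beside 1.95% and 1.32%. With RHC80267 against BMS309403 the authors' deposited table had 59 higher and 1 lower, beside 16.1% and 17.2%.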

How the data were processed

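RNA of 12 libraries in 4 groups of 3 was analysed. Per the file headers, the deposited table gives read counts per gene. Since 9.49% to 9.89% of the values in each library have decimals, they were taken as the authors' expected counts. The authors' deposited TPM values were used for levels between genes. The deposited log2 fold changes and q-values are from the authors' own comparisons. Per the submitters' processing notes, the tools were RSEM 1.3.1, Bowtie2 and DESeq2 1.4.5, with settings not given in the sources used here. Another 24 per-sample columns were not used.

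Expected counts were rounded and filtered with filterByExpr by group (a count of about 10 in 3 libraries, so a gene need be present in 1 group only), which left 12168 genes and removed 4402. Libraries totalled 17760844 to 18344989 counts and were scaled by TMM. One quasi-likelihood fit with edgeR 4.0.16 (R 4.3.3) held all 12 libraries with group as the only term (8 residual degrees of freedom, biological coefficient of variation 0.0371). P-values are 2-sided and Benjamini-Hochberg adjusted over all genes tested, and a gene is called below 0.05. The text says "rose" or "fell" of called genes only. Fold changes are log2 ± SE.

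Alternatives were DESeq2 1.42.0, limma-voom (limma 3.58.1), RLE factors, library totals without factors, 2 other filters, only the groups compared, a replicate block, members without the factors, and each library left out in turn. The fit was also run on simulated counts in which only the BMS309403 libraries held changed genes, and no result here rests on it. Genes were named by role, by the extreme fold changes of each complex and by the smallest p-values. Members and lists were chosen with earlier results of these data known. Positions are on GRCm38, and 77 of the 93 members have the same start and end in RefSeq GRCm38.p6. Results of single genes that are not named are not reported here. Copies were searched in GENCODE M21 transcripts.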

Additional observations from a re-analysis of the deposited data

How the results depend on the processing

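With RANKL against M-CSF, between 83 and 86 members were called higher and 0 lower under the alternatives other than leaving out the factors. With RHC80267 against RANKL and against BMS309403, 52 to 78 and 58 to 82 were called higher. Without the 9 factors that are not subunits the counts were 78, 68 and 68 of 81. The comparison of BMS309403 with RANKL was the least stable. With library totals and no factors it called 274 genes higher and 715 lower, and 15 members lower, the 7 called with TMM among them. Leaving out each library in turn gave 152 to 473 genes higher and 111 to 538 lower, and 0 to 8 members lower and 0 to 1 higher. Under library totals the median of all genes with RHC80267 against BMS309403 shifted to 0.10, and the members' median was 0.32. The count of members lower with RHC80267 against RANKL was 0 with DESeq2, with library totals and without the factors that are not subunits, and 0 to 1 with each library left out. Against BMS309403 it was 0 without those factors, by construction.

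Signs turned for members near 0. With RANKL, Ndufs8 was at 0.016 with library totals and between -0.087 and 0.10 with each library left out, and Ndufa2 at 0.028 with library totals and between -0.043 and 0.019 with each library left out. With BMS309403, leaving out each library gave -0.0061 to 0.066 for Uqcrh, -0.10 to 0.30 for Cox7a1 and -0.0036 to 0.079 for Atp5mpl. With RHC80267 against RANKL, Cox6b2 was at -0.061 with limma-voom, at -0.0074 with only the groups compared and between -0.398 and 0.216 with each library left out. The cause of these shifts was not tested.

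Replicate numbers did not pair the libraries: the deviations of 18 same-numbered pairs correlated between -0.092 and 0.094, and 5 of 12 libraries correlated best with their own number. With the replicate number as a block, 85, 6, 71 and 71 members were called in the main direction with RANKL, BMS309403 (lower), RHC80267 against RANKL and RHC80267 against BMS309403, and the calls lost were Ndufs1 with BMS309403 and Ndufaf8 with RANKL. Expression levels below 1 CPM, as for Cox6b2 with RANKL and Cox7a1 with M-CSF, rest on few counts.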
